A study of Mus musculus with 6 samples.

Results

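Solute carriers are the membrane proteins, named Slc and a family number, through which cells move amino acids, sugars, ions, metals, nucleosides and metabolites. The count table was searched for symbols that begin with Slc and a digit, which gave 271 of 16254 genes. Members were chosen by their level, a mean of at least 100 estimated counts over the 6 samples, and 7 genes (Slc2a1, Slc2a3, Slc16a1, Slc16a3, Slc7a2, Slc40a1 and Slc11a1) were left out by name, so that 170 genes remained and 94 fell under the mean. The samples were eosinophils differentiated from the bone marrow of C57BL/6 mice with FLT3 ligand and stem cell factor and then IL-5. They were cultured for 24 h with 5e9 EVs per ml from the medium of activated TH2 cells (EV-treated, n = 3) or with an equal volume of unconditioned medium taken through the same purification (sham-treated, n = 3). The labels call the 3 samples of each group biological replicates. The labels name no sort of the cultured cells, so that other marrow-derived cells may be present, and in bulk RNA fewer cells of a type and less RNA per cell cannot be told apart.

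Most carriers do not use ATP themselves. Some let a substrate run down its own gradient, others couple it to sodium or protons, and exchangers trade one substrate for another. Most sit in the plasma membrane, the Slc25 family in the mitochondrial inner membrane, much of the Slc35 family in the Golgi and endoplasmic reticulum, and a further set on lysosomes. Eosinophils depend on them for nutrient uptake, for the pH and ion balance of their granules and for the metals used by their enzymes.

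The libraries held between 23697620 and 37874426 estimated counts, with the 2 smallest totals in sham-treated samples. The 170 members took 1.27%, 1.31% and 1.29% of the estimated counts in the sham-treated samples and 1.03%, 1.04% and 1.02% in the EV-treated samples. Their share was lower in every EV-treated sample. All 170 members passed the filter on low counts and entered edgeR's quasi-likelihood comparison of the groups, with Benjamini-Hochberg adjustment over 13498 genes and a call at an adjusted p under 0.01. Values below are normalized counts, which are counts divided by the scaled library size. They are not divided by transcript length, so that levels can be compared between samples and not between genes. No exact permutation test is given for single genes, since its two-sided p cannot go under 0.1 with groups of 3.

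Of the 170 members, 24 rose and 43 fell with EV treatment, and 103 were not called. Among all genes tested, 12.1% were higher and 11.6% lower, and among the 10450 genes tested with a mean of at least 100 counts, 15.1% were higher and 12.9% lower. The members called amounted to 39.4% of the family, against 23.7% of all genes tested and 28% of those with a mean of at least 100. A change of at least 2-fold was called for 9 members that rose and 19 that fell, where the backgrounds over all genes tested were 3.1% and 6.35%, and over genes with a mean of at least 100 were 3.5% and 6.01%. The groups did not overlap in 105 members, against 49.6% of all genes tested and 53.5% of those with a mean of at least 100. The median log2 fold change of the members was -0.0973, and that of all genes was -0.014. Library size in place of TMM scaling gave 16 higher and 50 lower members, so that the share of higher members among those called was 24.2% in place of 35.8%, and moved the median of all genes to -0.163.

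The mean that chose the members could be reached through a single group. In 8 members only the sham mean and in 3 only the EV mean was at least 100 (Slc12a2, Slc12a8, Slc16a7, Slc22a3, Slc22a4, Slc25a13, Slc25a26, Slc26a11, Slc35e4, Slc35g1 and Slc5a3), and such a member had to differ between groups. Of the 159 members with both group means at least 100, 23 were higher and 37 were lower. A change of at least 2-fold was called for 8 of those higher and 13 of those lower, in place of 9 and 19. Just inside the floor lay Slc25a15, Slc35g1 and Slc25a26, with means of 105, 107 and 109.8 estimated counts, and just outside it Slc25a2, Slc13a1 and Slc19a1, with 94.5, 94.1 and 91.8.

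**Figure D1:**
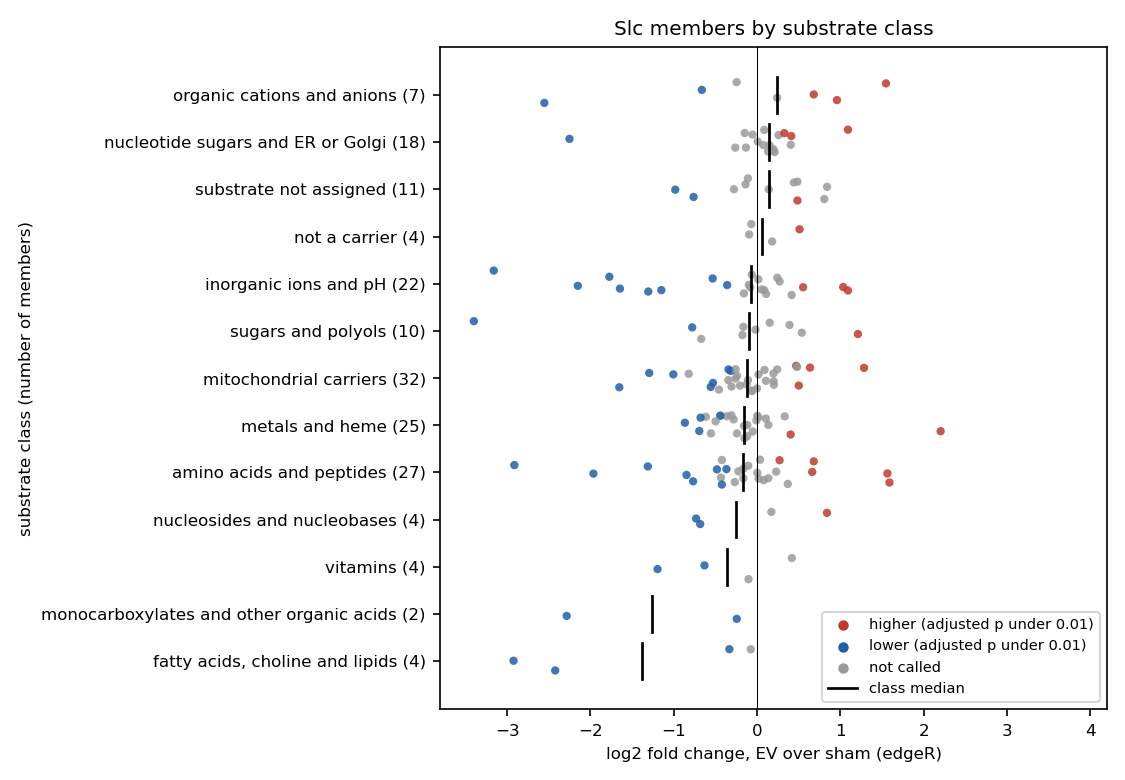
Log2 fold change (EV over sham, edgeR) of the 170 members on the horizontal axis, by substrate class on the vertical axis with the number of members in parentheses. Each point is a gene, red where higher and blue where lower at an adjusted p under 0.01, grey where not called, and the black bar is the class median. The lowest point is Slc37a2 at -3.40 and the highest is Slc39a8 at 2.20, and most classes hold points on both sides of 0.

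The substrate classes seldom moved one way. As background, 15.1% of the genes tested with a mean of at least 100 counts were higher and 12.9% lower, so that 28% were called. In the larger classes the share called was 48.1% for amino acids and peptides and 50% for inorganic ions. It was 34.4% for mitochondrial carriers, 24% for metals and heme and 22.2% for nucleotide sugars. Of 27 amino acid and peptide carriers, 5 were higher and 8 lower. The 22 carriers of inorganic ions and protons had 3 higher and 8 lower members. Among 25 carriers of metals and heme, 2 were higher and 4 were lower. The 32 mitochondrial carriers held 4 higher and 7 lower members. In the 18 carriers of nucleotide sugars and the secretory pathway, 3 were higher and 1 was lower, and in the 7 carriers of organic cations and anions 3 were higher and 2 lower. Of 10 sugar carriers, 1 was higher and 2 lower, and of 4 nucleoside carriers, 1 was higher and 2 lower. Called members only fell in the 4 carriers of fatty acids, choline and lipids (3 lower), the 2 carriers of monocarboxylates (2 lower) and the 4 vitamin carriers (2 lower). Genes left out by name are not counted in any class, and Slc16a1 and Slc16a3 are missing from the monocarboxylate class for that reason. The 11 members without an assigned substrate gave 1 higher and 2 lower, and of the 4 symbols that begin with Slc but do not name a carrier only Slc9a3r1, a scaffold protein, was called, at 0.51. Class medians lay between -1.38 for fatty acids, choline and lipids and 0.24 for organic cations and anions, where the median of all genes was -0.014. With library size in place of TMM, the higher members fell from 5 to 2 in the amino acid class, from 2 to 1 in the metal class, from 3 to 1 in the nucleotide sugar class and from 1 to 0 among those without a substrate.

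**Figure D2:**
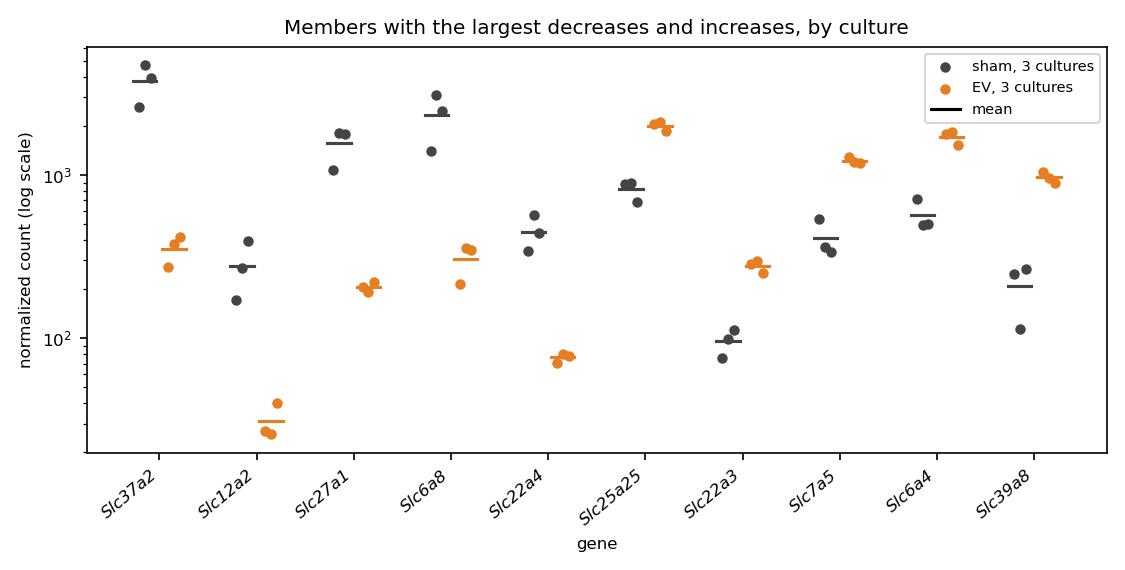
Normalized counts on a log scale for the 5 members with the largest decreases and the 5 with the largest increases, left to right from the lowest to the highest log2 fold change. Points are the 3 sham-treated (grey) and 3 EV-treated (orange) samples and bars are means. The 10 genes were chosen among called members whose groups do not overlap, so that their separation was set by the choice. Slc12a2 and Slc22a4 reached the mean that chose the members only through the sham-treated samples, and Slc22a3 only through the EV-treated ones. Sham replicate 1 is the lowest sham sample in the 5 genes that fell.

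Slc37a2, an exchanger of sugar phosphates and phosphate, had the largest decrease. It had 2630, 4695 and 3950 normalized counts in sham-treated and 272, 376 and 416 in EV-treated eosinophils. Every EV-treated sample lay far under the lowest sham-treated sample, and sham replicate 1 was the lowest of its group. The log2 fold change was -3.40 (standard error 0.22, adjusted p = 2.1e-06, edgeR). Slc37a3 fell by 0.78 on the same scale, while Slc37a1 and Slc37a4, the carrier of glucose 6-phosphate into the endoplasmic reticulum, were not called (0.54 and 0.15). The hexose carrier Slc2a6 moved the other way, from 507, 533 and 454 to 1044, 1148 and 1268 normalized counts, a log2 change of 1.21 (adjusted p = 1.58e-05), with no overlap. The other hexose carriers of the same family among the members, Slc2a8 and Slc2a9, had log2 fold changes of 0.39 and -0.16 and were not called.

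The carriers of fatty acids and choline were the class with the lowest median. Slc27a1, a fatty acid transport protein with acyl-CoA synthetase activity, had 1081, 1814 and 1796 normalized counts in sham-treated and 206, 191 and 220 in EV-treated samples. Its decrease of 2.92 on the log2 scale left no overlap (standard error 0.19, adjusted p = 2.56e-06). Slc44a1, a choline carrier, fell from 872, 1240 and 1402 to 189, 255 and 210. All EV-treated samples were again the lower ones (log2 fold change -2.42, adjusted p = 6.41e-06). Slc27a4, a related fatty acid transport protein with one of the highest counts of the family, had a smaller decrease, from 21772, 18534 and 20813 to 15441, 16179 and 16913, a log2 change of -0.33 (adjusted p = 0.00383). Its call was lost without sham replicate 3 (adjusted p = 0.0231) and without EV replicate 1, 2 or 3 (0.0241, 0.0228 and 0.0114). Slc44a2, the other choline carrier-like member, had a log2 change of -0.08 and was not called.

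Amino acid carriers of a shared complex moved apart. Slc3a2, the CD98 heavy chain that brings several light chains to the cell surface, had 11765, 12317 and 12510 normalized counts in sham-treated and 10555, 11226 and 10843 in EV-treated eosinophils, and was not called (log2 fold change -0.17, adjusted p = 0.0369). Its light chain Slc7a5, which imports leucine and other large neutral amino acids, had 534, 363 and 337 against 1284, 1203 and 1180. The lowest EV-treated sample had over 2 times the count of the highest sham-treated sample, and the log2 change was 1.56 (standard error 0.16, adjusted p = 3.98e-05). Slc7a8, a light chain with overlapping substrates, was at 22960, 21805 and 21031 against 18914, 19836 and 19958, and Slc7a6, which exchanges cationic for neutral amino acids, at 321, 324 and 352 against 459, 414 and 414. Neither was called, at log2 changes of -0.16 (adjusted p = 0.0389) and 0.37 (adjusted p = 0.0487). Slc7a11, the light chain that exchanges cystine for glutamate, was lower, at 62099, 52000 and 58373 against 44326, 41767 and 42556 (log2 fold change -0.42, adjusted p = 0.000737). With library size in place of TMM, Slc3a2 and Slc7a8 passed the threshold as lower members, at -0.31 and -0.31 on the log2 scale.

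Arginine, glutamine and creatine carriers gave a further contrast. Slc7a1, an importer of arginine and lysine, had 625, 619 and 883 normalized counts in sham-treated and 1178, 1121 and 1107 in EV-treated samples, a log2 change of 0.68 (adjusted p = 0.00307). That call was lost without sham replicate 2 (adjusted p = 0.0117), without EV replicate 1, 2 or 3 (0.0125, 0.014 and 0.0137) and with library size (0.0119). The glutamine carriers Slc1a5, Slc38a1 and Slc38a2 were not called, at 0.08, 0.13 and 0.04, and all 3 turned negative, still without a call, with library size in place of TMM. Slc6a8, which takes up creatine with sodium, fell from 1410, 3076 and 2481 to 215, 358 and 346, and the groups did not overlap (log2 fold change -2.91, standard error 0.28, adjusted p = 2.77e-05). The taurine carrier Slc6a6 fell from 25929, 29344 and 27254 to 20986, 21704 and 21276, a log2 change of -0.37 (adjusted p = 0.000701). Slc6a9, a glycine carrier, fell by 0.48 on the log2 scale, with its call lost without EV replicate 2 (adjusted p = 0.016). Slc6a13, a carrier of GABA and taurine, was higher by 0.66. Its call was lost without sham replicate 2 or 3 (adjusted p = 0.0109 and 0.0132), without EV replicate 1, 2 or 3 (0.0143, 0.0145 and 0.03) and with library size (0.0145).

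**Figure D3:**
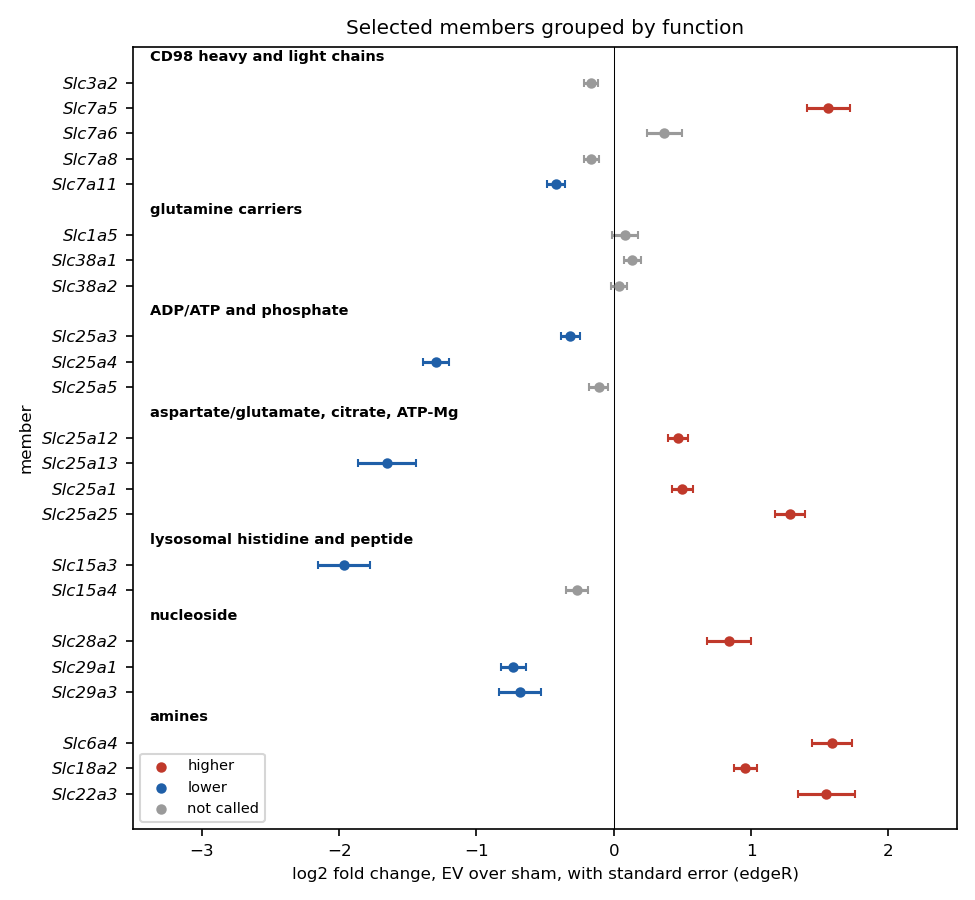
Log2 fold change (EV over sham) with its standard error on the horizontal axis for 23 members grouped by function on the vertical axis. Red points were higher, blue lower and grey not called at an adjusted p under 0.01. Slc7a5 is at 1.56 beside Slc3a2 at -0.17, Slc25a13 at -1.65 beside Slc25a12 at 0.47, and Slc28a2 at 0.84 beside Slc29a1 at -0.73. Slc25a13 reached the mean that chose the members only through the sham-treated samples, which favored a decrease. Slc22a3 reached that mean only through the EV-treated samples, which favored an increase.

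A set of 3 carriers of biogenic amines, grouped after their values were seen, rose. Slc6a4, the serotonin carrier of the plasma membrane, had 711, 491 and 503 normalized counts in sham-treated and 1794, 1836 and 1522 in EV-treated eosinophils (log2 fold change 1.59, standard error 0.15, adjusted p = 1.87e-05). Slc22a3, a carrier of organic cations such as histamine, had 75.7, 99.3 and 112 against 287, 297 and 252 (log2 fold change 1.55, adjusted p = 0.000252). It reached the mean that chose the members only through the EV-treated samples, so that the choice favored its increase. Slc18a2, which loads monoamines into vesicles, had 1778, 1511 and 1583 against 3393, 3207 and 2879 (log2 fold change 0.96, adjusted p = 1.73e-05). None of these genes overlapped between groups. Basophils and mast cells also express these amine carriers. Of 7 basophil and mast cell markers, 5 were higher, beside 12.1% of all genes tested, with a median log2 fold change of 1.55. Their summed normalized counts were 5943, 4510 and 5367 in sham-treated and 13678, 11569 and 11619 in EV-treated samples. Mcpt8, a basophil protease, rose by 2.46 and Gata2 by 1.07 on the log2 scale, while Kit, a defining mast cell receptor, had a value of -0.23 and was not called. The part of these cells in the result was not tested. In the same class Slc17a9, a carrier of nucleotides into vesicles, was higher by 0.68. Slc22a4, the ergothioneine carrier, fell from 341, 566 and 442 to 70.9, 79.7 and 78.3, a log2 change of -2.55 (adjusted p = 1.12e-05). Slc22a4 reached the mean that chose the members only through the sham-treated samples, so that the choice favored its decrease.

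Carriers of metals held the largest increase of the family. Slc39a8, which brings zinc and manganese into the cytosol from outside and from lysosomes, had 248, 114 and 265 normalized counts in sham-treated and 1043, 962 and 896 in EV-treated samples. Sham replicate 2 was the lowest sample, all EV-treated samples lay above the sham-treated ones, and the log2 change was 2.20 (standard error 0.25, adjusted p = 8.54e-05). None of the other 10 zinc importers of the Slc39 family was called higher. Of these, Slc39a1 and Slc39a4 were lower (log2 fold changes -0.68 and -0.44), and the others were not called. The call of Slc39a4 was lost without sham replicate 1 or 2 (adjusted p = 0.0121 and 0.0169) and without EV replicate 1, 2 or 3 (0.0296, 0.0206 and 0.0344). Of the 7 Slc30 carriers, most of which move zinc out of the cytosol, only Slc30a1 and Slc30a9 were called. The shares called, 27.3% of the Slc39 and 28.6% of the Slc30 members, were near the 28% of genes tested with a mean of at least 100 counts. Slc30a1 of the plasma membrane fell from 865, 1183 and 964 to 482, 615 and 553 (log2 fold change -0.87, adjusted p = 0.000771), and Slc30a9 rose by 0.40. The call of Slc30a9 was lost without EV replicate 2 (adjusted p = 0.0107) and with library size in place of TMM (0.0181). Slc48a1, a heme carrier of endolysosomes, fell by 0.69 on the log2 scale. The copper importer Slc31a1 and the iron carrier Slc11a2 had log2 fold changes of -0.62 and -0.44 and were not called (adjusted p = 0.0333 and 0.127).

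Of the 22 ion carriers, 6 fell and 2 rose by at least 2-fold, beside 6.01% and 3.5% of the genes tested with a mean of at least 100 counts. With library size in place of TMM, 6 fell and 0 rose by that much. Among the ion carriers that fell this far, Slc12a2 and Slc26a11 reached the mean of 100 estimated counts only through the sham-treated samples. Slc12a2, which takes up sodium, potassium and chloride together, had 172, 268 and 395 normalized counts in sham-treated and 27, 25.7 and 40 in EV-treated eosinophils. The groups were separate (log2 fold change -3.16, standard error 0.35, adjusted p = 6.71e-05), although the sham-treated samples spread over more than 2-fold. Slc12a7 and Slc12a4, which export potassium with chloride, were lower (log2 fold changes -1.77 and -1.15). Slc12a3, which takes up sodium with chloride, rose by 1.09 from low counts of 182, 233 and 99.6 to 342, 359 and 396 (adjusted p = 0.00903). Its call was lost without sham replicate 1 (adjusted p = 0.0167), without EV replicate 1, 2 or 3 (0.0186, 0.0296 and 0.0416) and with library size in place of TMM (0.0187). The proton exchangers Slc9a9 and Slc9a7, of endosomes and the Golgi, were lower (log2 fold changes -1.65 and -1.31). Slc24a3, an exchanger of sodium for calcium and potassium, rose from 1769, 1520 and 1431 to 3176, 3345 and 3152, a log2 change of 1.03 (0.89 with library size, still called). Slc26a11, an anion carrier with lysosomal and plasma membrane locations, had 187, 369 and 324 against 36, 99.4 and 60.9 (log2 fold change -2.15, adjusted p = 0.00136), and its adjusted p was 0.0103 without EV replicate 3.

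Among the mitochondrial carriers, a pair that shares a reaction was called in opposite directions. Slc25a12 and Slc25a13 exchange aspartate for glutamate. Slc25a12 had 1274, 1295 and 1152 normalized counts in sham-treated and 1776, 1685 and 1691 in EV-treated samples, and rose by 0.47 on the log2 scale (adjusted p = 0.000837). Slc25a13 had 203, 260 and 269 against 71.9, 84.9 and 74.9, and fell by 1.65 (adjusted p = 0.000178). Slc25a13 reached the mean that chose the members only through the sham-treated samples, with mean estimated counts of 219.3 (sham) and 85.67 (EV). The choice of members therefore favored a decrease in Slc25a13, and its direction in this contrast is to be read with that limit. Neither gene overlapped between groups. Of the carriers that exchange ADP for ATP, Slc25a4 fell from 1383, 1651 and 1513 to 641, 634 and 577 (log2 fold change -1.29, standard error 0.09, adjusted p = 4.52e-06), and Slc25a5 was at 4593, 4845 and 5267 against 4422, 4419 and 4785, with overlap and no call (-0.11). Slc25a3, the phosphate carrier that supplies ATP synthesis, fell by 0.32 on the log2 scale (adjusted p = 0.00564), but its call was lost without sham replicate 2 or 3 (adjusted p = 0.0208 and 0.0255) and without EV replicate 1, 2 or 3 (0.0322, 0.019 and 0.0301). Slc25a25, which exchanges ATP-Mg for phosphate and is regulated by calcium, rose from 888, 898 and 687 to 2060, 2109 and 1856, a log2 change of 1.28 (standard error 0.11, adjusted p = 1.22e-05). The citrate carrier Slc25a1 was higher by 0.50, while the mitochondrial iron importer Slc25a37 fell by 0.56 on the log2 scale. The dicarboxylate carrier Slc25a10 fell by 1.01, but its call was lost without sham replicate 2 or 3 (adjusted p = 0.0144 and 0.0178) and without EV replicate 1, 2 or 3 (0.0213, 0.0238 and 0.0436).

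Of 25 carriers listed as lysosomal, 24 were members, of which 3 were higher and 9 were lower, with a median log2 fold change of -0.246, beside 15.1% higher and 12.9% lower among genes tested with a mean of at least 100 counts. The carriers that rose were Slc39a8, Slc2a6 and Slc17a9. Slc15a3, which moves histidine and small peptides out of lysosomes, had 3565, 5336 and 5015 normalized counts in sham-treated and 866, 1268 and 1425 in EV-treated samples, with a wide gap between the groups (log2 fold change -1.96, standard error 0.19, adjusted p = 2.81e-05). Its relative Slc15a4 had 1649, 1737 and 1487 against 1351, 1327 and 1370 and was not called (-0.27, adjusted p = 0.0227). It was called without sham replicate 3 (adjusted p = 0.00982) and with library size in place of TMM (0.00234). Slc38a7, an exporter of glutamine and asparagine from lysosomes, fell by 1.31, Slc17a5, the sialic acid exporter, fell by 0.66, and Slc49a4, a carrier of pyridoxine, fell by 0.63 on the log2 scale. The call of Slc49a4 was lost without EV replicate 1, 2 or 3 (adjusted p = 0.0108, 0.013 and 0.0107). Slc38a9, the amino acid sensor of the mTORC1 pathway, and Slc36a1 were not called, at -0.22 and 0.02. The proton pump that acidifies lysosomes had 1 higher and 8 lower of 17 subunits tested, led by Atp6v0d2 at -1.82, where 12.1% of all genes tested were higher and 11.6% lower.

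Of the nucleoside carriers, the equilibrative carriers Slc29a1 of the plasma membrane and Slc29a3 of lysosomes fell. Slc29a1 had 1039, 1121 and 1167 normalized counts against 627, 709 and 665 (log2 fold change -0.73, adjusted p = 0.000163), and Slc29a3 had 1139, 1673 and 1807 against 887, 961 and 1024 (log2 fold change -0.68, adjusted p = 0.00592). The call of Slc29a3 was lost without sham replicate 2 or 3 (adjusted p = 0.024 and 0.0275) and without EV replicate 1, 2 or 3 (0.0252, 0.0262 and 0.0196). Slc28a2, which takes up purine nucleosides with sodium, had 519, 353 and 366 against 715, 806 and 699.8, a log2 change of 0.84 (adjusted p = 0.00222). That call was lost without sham replicate 3 (adjusted p = 0.0116) or EV replicate 2 (0.0149), and 46.3% of the 31-base words of Slc28a2 occur also in the predicted gene Gm14085, so that its counts are uncertain.

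The called members among the vitamin and monocarboxylate carriers were lower. Slc23a2, which takes up ascorbate with sodium, had 2713, 3264 and 2761 normalized counts in sham-treated and 1181, 1386 and 1249 in EV-treated samples, without overlap (log2 fold change -1.19, standard error 0.09, adjusted p = 6.92e-06). The pyruvate and lactate carrier Slc16a7 had 401, 369 and 430 against 98.9, 84 and 63.5 (log2 fold change -2.28, adjusted p = 1.44e-05). Slc16a7 reached the mean that chose the members only through the sham-treated samples, so that the choice favored its decrease. Slc16a6, of the same family, fell by 0.24 with an adjusted p of 0.00825, but its call was lost in each of the 6 leave-one-out fits, with an adjusted p between 0.015 and 0.0518, and 22.5% of its exon bases lie in an antisense gene. In the Golgi and endoplasmic reticulum class, Slc35e3 rose from 588, 574 and 535 to 1234, 1180 and 1202 (log2 fold change 1.09, adjusted p = 7.41e-06). Slc35e4 fell from 204, 385 and 334 to 58.9, 67.7 and 66.1 (log2 fold change -2.25, adjusted p = 9.52e-05). For Slc35e4 too, the mean that chose the members was reached only through the sham-treated samples. The GDP-fucose carrier Slc35c1, needed for the fucose of selectin ligands, was higher by 0.41 on the log2 scale, with its call lost without EV replicate 1, 2 or 3 (adjusted p = 0.0105, 0.0173 and 0.0153) and with library size in place of TMM (0.0239). Of the members without an assigned substrate, Slc35f5 and Slc35f6 were lower, with log2 fold changes of -0.98 and -0.76.

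**Figure D4:**
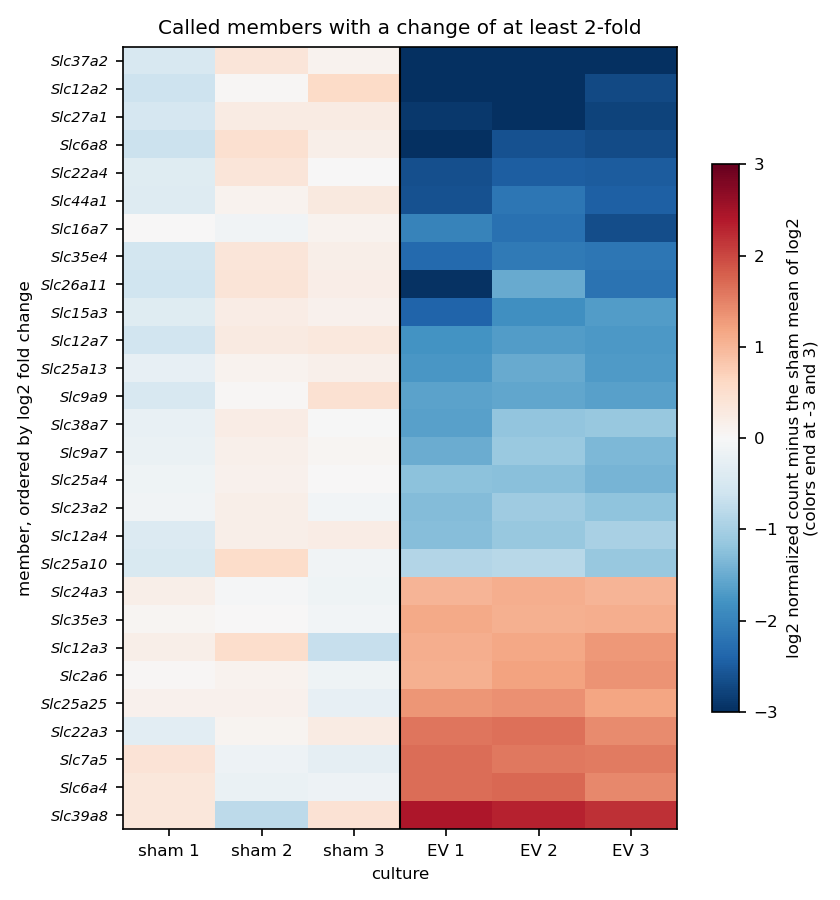
The 28 members called with a change of at least 2-fold (rows, ordered by log2 fold change) in each of the 6 cultures (columns), colored by log2 normalized count minus the sham mean of log2, with colors ending at -3 and 3. The rows were chosen by this change, so that the EV-treated columns are blue in the upper 19 rows and red in the lower 9. The column of sham replicate 1 is often pale blue in the upper rows.

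The sham-treated samples varied more than the EV-treated ones. The median coefficient of variation over the 170 members was 11.6% in sham-treated and 5.93% in EV-treated samples, and it was larger in sham-treated samples for 129 members. Sham replicate 1 was the lowest sham sample for 34 of the 43 lower members and the highest for 14 of the 24 higher members. EV replicate 1 was the lowest EV-treated sample for 29 of the 43 lower members. Without sham replicate 1, 26 members were higher and 44 were lower, of which 10 and 21 by at least 2-fold.

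**Figure D5:**
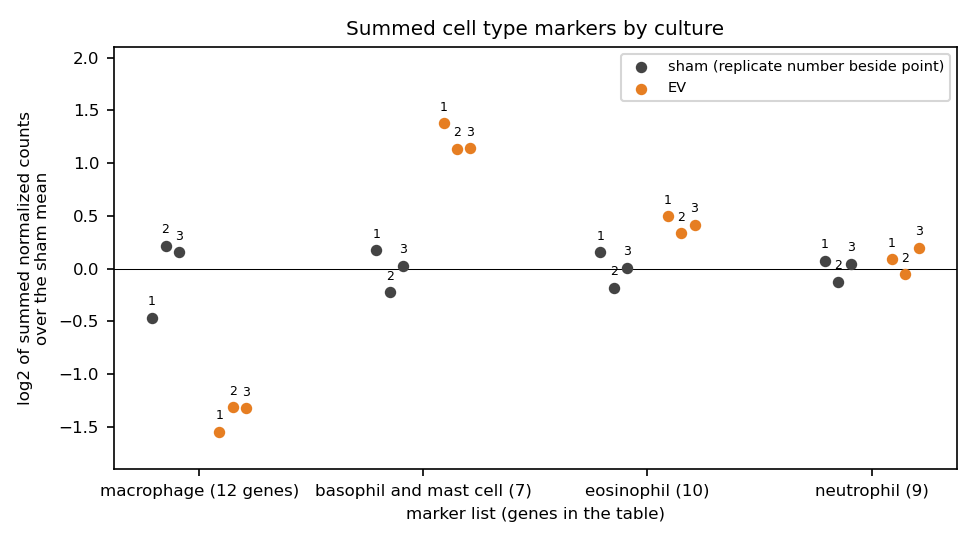
Summed normalized counts of 4 lists of cell type markers in each culture, as log2 over the sham mean, with the replicate number beside each point (sham grey, EV orange). The macrophage sum is lower in all EV-treated samples and lowest among shams in replicate 1, the basophil and mast cell sum is higher in all EV-treated samples, and the neutrophil sums overlap.

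Markers of other cells moved with the treatment as well, where 12.1% of all genes tested were higher and 11.6% lower. Of 12 macrophage markers, 10 were lower, Adgre1 was higher by 0.62 and Mrc1 was not called, with a median log2 fold change of -2.52. Their summed normalized counts were 98356, 157660 and 151200 in sham-treated and 46441, 54540 and 54150 in EV-treated samples, so that sham replicate 1 was also the lowest sham sample here. Lyz2, Trem2 and Apoe had log2 fold changes of -3.28, -3.43 and -3.71, beside -3.40 for Slc37a2 and -3.16 for Slc12a2. Eosinophil markers had 7 of 10 higher and none lower, with a median of 0.709, and Siglecf and Ccr3 rose by 0.85 and 1.13. Of 9 neutrophil markers tested, 2 were higher and 4 were lower. The 6 T cell markers in the table summed to 336, 846 and 722 against 64.9, 123 and 111 normalized counts, most of it Cd28 (log2 fold change -3.70), while Cd3g was at most 6 in any sample. The 6 dendritic cell markers summed to at most 115 in sham-treated and 201 in EV-treated samples, and of the 4 tested only Batf3 was called (1.87). The part of macrophages or of any other cell in the changes of the carriers was not tested.

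Transporters outside the Slc nomenclature were set beside the members, with 12.1% higher and 11.6% lower among all genes tested as the background for each list. Of 33 carriers of the same superfamily without an Slc symbol that were tested, 8 were higher and 6 were lower. Slco3a1 and Slco4a1, carriers of organic anions, rose by 1.74 and 1.27, Spns2, the exporter of sphingosine 1-phosphate, rose by 1.23, and Flvcr1, a choline and heme carrier, fell by 1.38. ATP-binding cassette transporters, which use ATP, had 3 higher and 9 lower of 29 tested, with Abcg3 at 2.62, the cholesterol exporter Abca1 at -3.66 and the drug exporter Abcb1a at -4.59. Of 18 partner and regulator genes, 2 were higher and 5 were lower. Emb, the chaperone of some monocarboxylate carriers, rose by 0.85 and Atf4, a transcription factor of amino acid carrier genes, by 0.29, while Rragd and Mitf, of the lysosomal nutrient-sensing pathway, were lower (log2 fold changes -3.16 and -1.24).

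The start regions of the members were searched for 4 motifs on either strand, since several factors of nutrient and cytokine signaling bind short motifs near the start of carrier genes. RefSeq windows of GRCm38.p6, from 250 bases before to 50 after a start, matched 131 of the 170 members by symbol. An E-box, CACGTG, was found in 10 of 32 lower members (31.2%), 3 of 21 higher members (14.3%) and 12 of 78 members not called (15.4%), and in 11.2% of all genes tested and 7.15% of all windows. The STAT motif TTCNNNGAA was in 9.52% of higher and 6.25% of lower members and 8.41% of genes tested. An ATF4-type motif, TGATGNAA, was in none of the 21 higher and 3 of the 32 lower members, and in 2.98% of genes tested. The NRF2-type motif TGACNNNGC was in 19% of higher and 25% of lower members and 16.9% of genes tested. These shares describe letters in a window and were not tested, and a gene with several starts has several windows.

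The lower members with an E-box were Slc27a1, Slc22a4, Slc12a7, Slc25a13, Slc38a7, Slc37a3, Slc29a1, Slc49a4, Slc20a1 and Slc25a36, and the higher ones were Slc39a8, Slc35e3 and Slc25a1. The calls of Slc49a4, Slc20a1 and Slc25a36 were each lost without 3 or more of the samples in turn. Slc22a4 and Slc25a13 reached the mean that chose the members only through the sham-treated samples, which favored a decrease. Both are counted in the share of lower members with an E-box. The stretches around the motif are shown for members of each direction, on the strand of the gene, with the motif in capitals. The first is chr11:54028297-54028354 (minus strand), with an E-box that begins 228 bases before the start, and the second is chr6:6217263-6217328 (minus strand), with an E-box at 125. The third, chr3:135825556-135825621 (plus strand), holds an E-box 71 bases before a second start of Slc39a8 and lies inside that gene by GENCODE vM21 but in no exon.
Slc22a4 (lower): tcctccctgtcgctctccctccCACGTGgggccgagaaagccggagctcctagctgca
Slc25a13 (lower): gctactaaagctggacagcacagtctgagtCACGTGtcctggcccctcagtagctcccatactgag
Slc39a8 (higher): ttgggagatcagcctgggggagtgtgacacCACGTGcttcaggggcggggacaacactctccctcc

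Stretches with the other motifs are shown for the cystine carrier, whose window holds a pair of ATF4-type motifs, and for Slc49a4, where an E-box and an ATF4-type motif overlap, beside the STAT motif of Slc28a2. For Slc7a11, chr3:50443623-50443709 (minus strand), the motifs begin 66 and 47 bases before the start and lie on opposite strands. For Slc49a4, chr16:35769536-35769607 (minus strand), they begin 207 and 203 bases before the start and share letters. For Slc28a2, chr2:122426279-122426347 (plus strand), the motif begins 126 bases before the start. None of these stretches overlaps an exon of GENCODE vM21.
Slc7a11 (lower): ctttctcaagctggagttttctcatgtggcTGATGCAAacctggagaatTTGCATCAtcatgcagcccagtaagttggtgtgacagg
Slc49a4 (lower): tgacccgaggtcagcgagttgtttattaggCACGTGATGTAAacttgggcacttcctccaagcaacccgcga
Slc28a2 (higher): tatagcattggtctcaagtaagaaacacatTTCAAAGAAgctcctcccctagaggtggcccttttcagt

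Some members share sequence with other genes, so that their counts are uncertain. Over 20% of the 31-base words of 8 members occur in the transcripts of another gene in GENCODE vM21, with the largest share, 76.8%, in Slc39a7 and its readthrough Gm20427. Others were Slc25a5 (49.4%), Slc28a2, Slc22a5 (37.8%), Slc38a6 (31.3%), Slc39a1 (27.7%) and Slc35e3 (21.6%). Antisense genes covered 28.1% of the exon bases of Slc15a3 and 30.2% of those of Slc6a9, and whether the counting used strand is not given in the sources used here.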

How the data were processed

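Bulk poly(A) RNA sequencing of 3 sham-treated and 3 EV-treated cultures was analysed. The submitters' notes name FastQC, cutadapt, Salmon, DESeq2 and the mm10 build. The authors deposited estimated counts per gene, which need not be whole, and normalized counts, a signal made from the rounded count plus 1. A table of the authors' own comparison, with log2 fold changes and p-values, was not used. Annotation version, strand setting and tool versions are not given in the sources used here.

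Estimated counts were rounded and compared with edgeR 4.0.16 in R 4.3.3 (TMM scaling, filterByExpr, quasi-likelihood test, Benjamini-Hochberg adjustment over 13498 genes). A call is an adjusted p under 0.01, and the 2-fold counts also need a log2 fold change of 1 or more in size. The standard error is the size of the log2 fold change over the root of its F statistic. DESeq2 1.42.0, limma 3.58.1 on log2 of the deposited normalized counts, other scalings, no filter, a replicate block, leaving out each sample and other floors were the alternatives.

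Members, substrate classes and lists were chosen with earlier results of these data known. Classes follow the family number, so that the serotonin and creatine carriers stand with amino acid carriers. Genes named are the 5 called members with the largest increases and decreases and no overlap, the 2 largest called changes of each class, those of the 5 members with the highest mean normalized counts that are reported here (some genes are not), members fixed by function, and those at the floor. Other members, such as Slc18a2, Slc25a12, Slc12a3 and Slc24a3, and the genes named in the other lists were named after their values were seen. P-values set the difference between the groups against the spread among these cultures.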

Additional observations from a re-analysis of the deposited data

How the results depend on the processing

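The numbers of higher and lower members stayed within 1.5 times of 24 and 43 under every alternative. They were 16 and 50 with library size, 24 and 43 with relative log expression scaling or limma, 24 and 42 without the filter, 26 and 43 with DESeq2, and 31 and 50 at an adjusted p under 0.05. With a single sample left out, higher members numbered between 16 and 26, lower members between 31 and 44, those at least 2-fold higher between 7 and 10 and those at least 2-fold lower between 17 and 21. With a floor of 500 mean counts in place of 100, which kept 114 members, 7 were at least 2-fold lower in place of 19, the only such count to move by over 1.5 times. Of the 67 called members, 45 stayed called without each sample in turn and 58 under the 6 other fits, and none of the 67 changed direction. Among named members not called, the log2 fold change reversed with library size for Slc1a5 (-0.069), Slc38a1 (-0.014) and Slc38a2 (-0.11). That scaling lowered the log2 fold change of every member by between 0.145 and 0.153, so that small positive values became negative by construction.

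With the replicate number as a block, 25 members were higher and 43 were lower, 9 and 18 of them at least 2-fold, and 66 of the 67 calls stayed. Slc16a6 lost its call (adjusted p = 0.0165). Slc15a2 and Slc10a7 gained one, with adjusted p-values of 0.00567 and 0.00403 in place of 0.437 and 0.0148 in edgeR. Over all genes, 3575 were called with the block and 3204 without it. Same-numbered samples deviated together with correlations across genes of 0.117, 0.0846 and 0.0371. Those between different numbers lay from -0.116 to 0.0487, and 5 of the 6 samples correlated best with their own number. These small values do not settle whether the numbers pair the samples. The labels do not state a pairing, and the main comparison was made without a block. The members with the fewest counts are the least precise, and 3 cultures per group limit every call.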
